A study of Danio rerio with 1324 samples.

Results

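Single beta-cells of zebrafish aged 6 months post-fertilization (mpf) were deposited in 2 sets of columns, 51 cells whose columns are named New and 39 cells whose columns are not. Together these 90 cells were taken out of 637 deposited cells of 7 ages. By the study's sample table, 6 mpf was collected on 2 dates, one shared with 4 mpf and the other with 10 mpf, and the columns do not say which date belongs to which batch. Both batches carry the labels Tg(ins:BB1.0L), normal feeding and sorted beta-cells. The transgene places fluorescent proteins under the insulin promoter, and the line also carries a red eye marker driven by the promoter of the lens gene cryaa. Each batch pooled the islets of several outbred fish, so that a batch is 1 sample, the cells within it are not replicates of a fish, and no difference between the batches could be tested. All values below describe these cells, with the SD between cells, and intervals cover counting error only. Fish, date, plate and library preparation cannot be told apart in this comparison.

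Beta-cells are the endocrine cells of the islet that make insulin, store it in dense granules and release it when glucose enters the cell and its metabolism closes potassium channels. The other endocrine cells of the zebrafish islet make glucagon (alpha-cells, from gcga and gcgb), somatostatin (delta-cells, from sst1.1, sst1.2 and sst2) or ghrelin (epsilon-cells, from ghrl). A cell that makes so much of a single secreted protein leans on the endoplasmic reticulum (ER), on granule and lysosome acidification by the V-ATPase proton pump, and on a set of transcription factors that keep its identity.

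The batches were sequenced to similar depth. The reads counted on genes ran from 150066 to 885968 per New cell, with a median of 288586, and from 6909 to 985949 per cell of the other batch, with a median of 298280. The shallow end differed, since 7 cells of the other batch and none of the New cells had fewer than 100000 reads. The median New cell had a read of 2626 genes and the median cell of the other batch of 2990, and after drawing 100000 reads from every cell that had them these medians were 2443 in 51 cells and 2944 in 32 cells. All 6 beta-cell markers (ins, pdx1, mnx1, ucn3l, slc2a2, pcsk1) were read in both batches. Markers of exocrine, vessel and blood cells were low. The markers of acinar cells summed to at most 128.6 TPM, a length-corrected read level with the same total in every cell, in any cell of the other batch and 109.8 TPM in any New cell, with ela2, ela2l and ela3l at 0 in both batches. The 6 blood and immune markers matched (among them hbaa1, lyz and ptprc) summed to at most 42.8 TPM in the other batch and were at 0 in all New cells. In a longer list of 16 such markers, 4 had reads, and the sum reached 42.8 TPM in the other and 31 TPM in the New batch. Of the 10 duct markers in the longer list, 6 had reads, and krt4, krt18b and CFTR were at 0. Their sum had a median of 138.1 TPM and a highest value of 416 TPM in the other batch, and a median of 89.7 TPM and a highest value of 1088 TPM in the New batch. Most of it was krt8, a keratin of simple epithelia, which was read in 92.3% of the other and 66.7% of the New cells, while epcam, an epithelial adhesion protein, was read in 7.69% and 47.1%. The part of other cell types in the results below was not tested.

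Levels are given as log2(TPM + 1), and a difference is the mean over the New cells minus the mean over the other cells. Among the 8258 genes with a read in at least 10% of the 90 cells, 294 (3.56%) were higher in the New batch by 1 or more and 601 (7.28%) were lower by 1 or more. At a limit of 2 these were 44 and 90 genes, and at a limit of 3 they were 9 and 18. The median difference of all genes was -0.06. The surplus of lower genes goes with the smaller number of genes detected per New cell, whose part in it was not tested. With the reads of each batch summed before the comparison, so that a few cells with very high values count for more, 1380 genes were higher and 1179 lower. The genes past the limit of 1 also differed in detection. A mean of log2(TPM + 1) weighs a read against no read heavily, so this measure favours such genes. The shares of cells that follow were not separated from that property of the measure. A gene that was higher in the New batch had a read in 54.9% of the New cells and 30.8% of the other cells (medians over the 294 genes), and a gene that was lower had a read in 31.4% and 59% (medians over the 601 genes). No gene separated the batches fully, since the cell values of all 8258 genes overlapped.

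**Figure D1:**
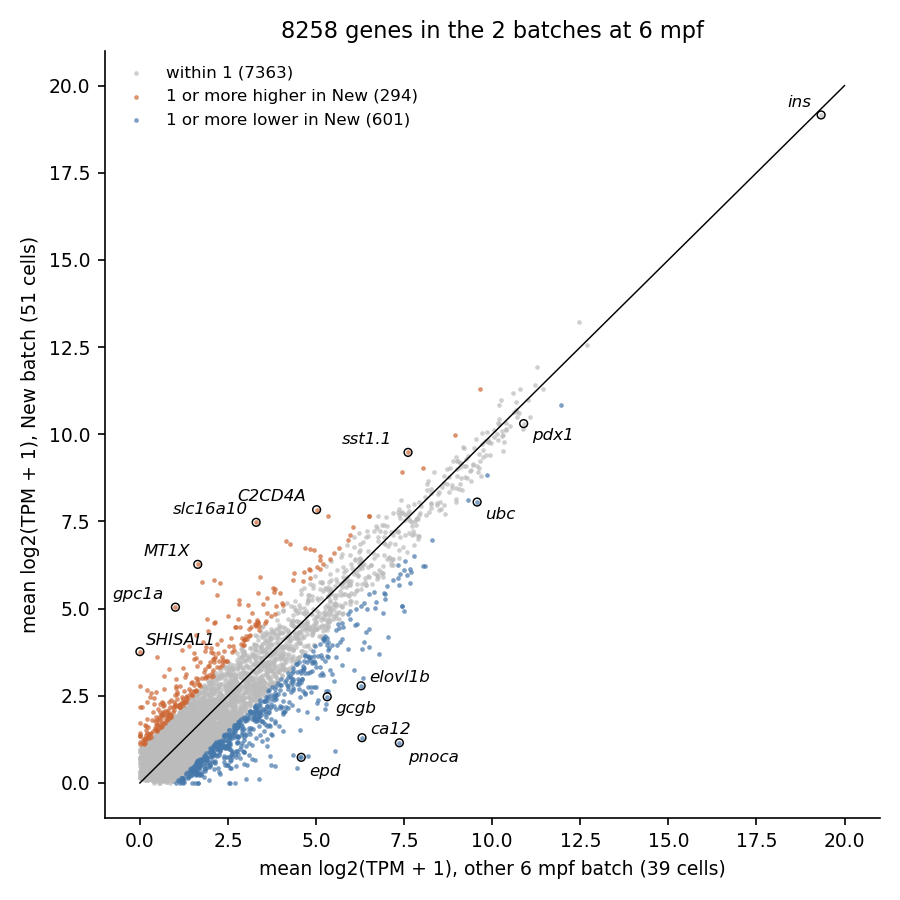
Mean log2(TPM + 1) of 8258 genes in the New batch (vertical, 51 cells) against the other 6 mpf batch (horizontal, 39 cells), with genes 1 or more apart in colour, the line of equality in black and 14 genes circled and named. Insulin (ins) and pdx1 lie near the line, and 294 genes lie above and 601 below it by 1 or more.

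Among the genes lower in the New batch, pnoca, which encodes the precursor of the neuropeptide nociceptin, had the most negative difference. Averaged over cells, it was at 7.36 ± 2.87 in the other batch and 1.15 ± 2.96 in the New batch, a difference of -6.21. Cells of the other batch ran from 0 over a median of 287 TPM to 2129 TPM. The New cells ran from 0 over a median of 0 to 10596 TPM. Thus 35 of 39 cells (89.7%, 95% interval 75.8 to 97.1) had a pnoca read in the other batch and 9 of 51 (17.6%, 8.4 to 30.9) did in the New batch. A single New cell held 82.4% of all pnoca reads of its batch, and with the reads of each batch summed the difference was -1.12.

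The gene ca12, a carbonic anhydrase, had a difference of -5.01 and a read in 97.4% of the other cells and 25.5% of the New cells. Its highest New value, 90.5 TPM, lay under the median of the other batch, 106.2 TPM, and the batches overlapped below it. Levels of tspan36, a tetraspanin of the cell membrane, gave a difference of -4.62, and those of actn1, which encodes the actin crosslinker alpha-actinin, of -4.01. For both genes the median New cell was at 0, while 82.1% of the other cells had a read of tspan36 and 89.7% of actn1. The fatty acid elongase elovl1b was read in all 39 cells of the other batch, from 3.07 over a median of 99.1 to 327 TPM. In the New batch 24 of 51 cells (47.1%) had an elovl1b read, and the highest value was 791 TPM.

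Further genes with differences between -4.05 and -3.15 were tmem59l (-4.05), ak5l (-3.80), which encodes an adenylate kinase, slc6a17 (-3.33), a transporter of neutral amino acids in neurons, and WIF1 (-3.32), a secreted inhibitor of Wnt ligands. The list of the 15 most negative also held SCIN (-3.23), an actin-severing protein, zgc:165573 (-3.15) and the unnamed si:ch73-204p21.5 (-3.54) and si:ch211-248a14.8 (-3.17). Names in capitals are those that the gene table gives to the zebrafish gene from its human relative.

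Of the genes lower in the New batch, epd and olfm4.2 were carried by part of the cells. Reads of epd, the secreted glycoprotein ependymin, were found in 16 of 39 cells of the other batch, 6 of which (15.4%) held more than 100000 TPM of it, up to 239558 TPM. Those 6 cells held all values over 1000 TPM, so the gene was split within its batch. The 7 New cells with a read of epd had at most 126.3 TPM. Its difference of -3.84 therefore stands on a minority of cells, and with summed reads epd was further apart, at -11.97. Reads of olfm4.2, a secreted olfactomedin, were found in 19 cells (48.7%) of the other batch and in 1 New cell (1.96%), at a difference of -3.27.

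The gene with the most positive difference was one for a metallothionein, a small protein that binds zinc and copper, named MT1X (ENSDARG00000041623) in the gene table. It was at 6.27 ± 4.18 in the New batch and 1.64 ± 2.87 in the other, a difference of 4.63. New cells ran from 0 over a median of 272 TPM to 3729 TPM, and 37 of 51 (72.5%, 58.3 to 84.1) had a read. Cells of the other batch had a median of 0 and a highest value of 334 TPM, and 10 of 39 (25.6%, 13 to 42.1) had a read.

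The transporter of aromatic amino acids slc16a10 had a difference of 4.18, with a read in 50 of the 51 New cells. Its New cells ran from 0 over a median of 267 TPM to 832 TPM and the other cells from 0 over 15.4 to 229 TPM. No cell of the other batch reached the New median, and 48 New cells lay over the median of the other batch. Differences of 4.03 were found for gpc1a, a glypican of the cell surface that was read in 84.3% of the New and 23.1% of the other cells, and for plp1b, a relative of the myelin proteolipid protein (78.4% and 38.5%). The gene SHISAL1 (ENSDARG00000067710) was read in 39 New cells (76.5%, 62.5 to 87.2), with a median of 18.9 TPM, and in 0 of the 39 other cells, which allows a share of up to 9.03%. Its summed level was 86.3 CPM (reads scaled to the total of the batch, 95% Poisson interval 81.8 to 90.9) in the New batch and 0 in the other.

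Next in order were fndc5b (3.72), whose human relative is cleaved to the hormone irisin, phyhiplb (3.46) and ZBTB16 (3.22), a zinc-finger transcription factor. The lens crystallin gene cryaa, whose promoter drives the eye marker of this line, had a read in 39 New cells (76.5%) and 6 of the others (15.4%), at a difference of 3.13 and a highest level of 264 TPM. It was followed by C2CD4A (2.82), which in mammals is known from a locus linked to type 2 diabetes, and by angptl4 (2.78), a secreted inhibitor of lipoprotein lipase. The list of the 15 most positive closed with the 7SK small nuclear RNA rn7sk (2.79), si:dkey-238c7.13 (2.78), the polyamine acetyltransferase gene sat1a.1 (2.64) and magoh (2.62), a part of the exon junction complex.

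**Figure D2:**
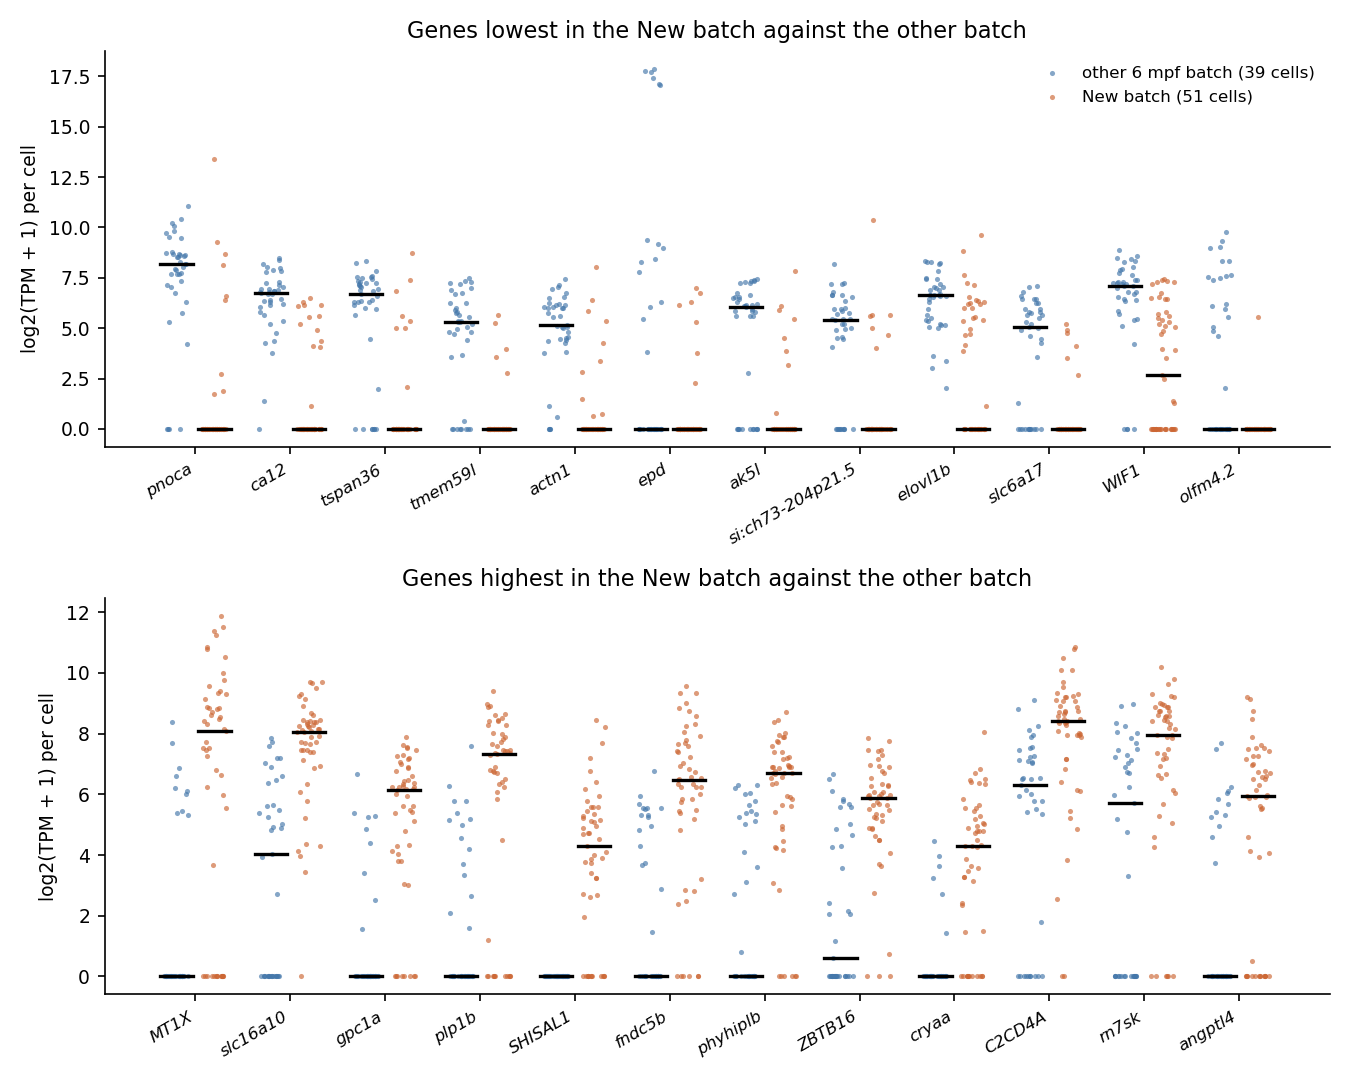
Level per cell, as log2(TPM + 1), of the 12 genes with the most negative (upper panel) and the 12 with the most positive difference (lower panel). Each point is a cell of the New batch or of the other 6 mpf batch, and black bars are medians. Most genes combine a median of 0 in one batch with a median over 4 in the other, and epd stands out through 6 cells above 100000 TPM.

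Some genes were read in one batch alone. Genes with a read in at least 25% of the cells of one batch and in no cell of the other numbered 10 for the New batch and 10 for the other batch, and each of them had reads in at least 1 further pool of another age. Beside SHISAL1, the New batch alone held reads of the unnamed si:dkey-238c7.13 (45.1% of New cells), of the adhesion molecule vcam1b (33.3%), of the neurotrophin BDNF (25.5%), of gfra1a, a receptor for GDNF ligands (25.5%), and of bnip3la, a receptor for the removal of mitochondria (25.5%). The other batch alone held reads of the estrogen receptor ESR2 (53.8% of its cells), of the microtubule protein STMN4 (48.7%), of the peptide hormone urocortin, UCN (46.2%), of the transcription factor runx2a (35.9%), of olfm4.1 (35.9%) and of mbpa, a gene of myelin basic protein (25.6%). With the cells holding 1000 TPM or more of another islet hormone left out, the difference of gfra1a was 0. All New cells with a gfra1a read were thus such cells. A share of 0 among 51 New cells allows up to 6.98%. These genes were named after their values were seen.

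The insulin gene was nearly level between the batches. It made up a median of 71.7% of all TPM in a New cell and 69.8% in a cell of the other batch, at 19.16 ± 0.73 and 19.34 ± 0.20, a difference of -0.18. The ranges differed at the lower end. All cells of the other batch held between 426346 and 816205 TPM, while the New cells ran from 53510.0 to 810848 TPM, so that the lowest New cells lay under every cell of the other batch. Of the 51 New cells, 50 held 100000 TPM of ins or more. In the lowest cell all islet hormone genes together, ins among them, summed to 54193.9 TPM, so that it was not rich in another hormone.

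Of the 6 genes for other islet hormones fixed for this count (gcga, gcgb, sst1.1, sst1.2, sst2 and ghrl), at least 1 stood at 1000 TPM or more in 22 of 51 New cells (43.1%, 29.3 to 57.8) and 16 of 39 other cells (41%, 25.6 to 57.9). The share of such cells was thus close in the batches. The median cell held 1016 TPM of the 6 genes in the New batch and 929 TPM in the other. The mean over cells was further apart, with the 6 genes making up 6.39% of all TPM in a New cell and 1.85% in a cell of the other batch. Glucagon genes reached 1000 TPM in 2 New cells (3.92%, 0.478 to 13.5) and 5 other cells (12.8%, 4.3 to 27.4). Somatostatin genes did so in 21 New cells (41.2%, 27.6 to 55.8) and 14 other cells (35.9%, 21.2 to 52.8). Both pairs of intervals overlap, and most hormone-rich cells of either batch were rich in somatostatin. Cells with 1000 TPM of both kinds numbered 1 in the New and 3 in the other batch. The depth of the cells rich in another hormone was like that of the rest, with medians of 287108 and 292527 reads in the New batch and of 287220.0 and 315227 reads in the other. Genes read in the 5 New cells highest in these hormones numbered 3364, 4669, 4509, 5062 and 3512, beside a batch median of 2626. In the other batch they numbered 1552, 6447, 2457, 1722 and 3502, beside a median of 2990. The reason was not tested.

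The glucagon gene gcgb had a read in 18 New cells (35.3%, 22.4 to 49.9) and 25 other cells (64.1%, 47.2 to 78.8), and its difference was -2.84. Values in the other batch ran from 0 over a median of 119.6 TPM to 7148 TPM. The New batch had a median of 0 and a highest cell of 128170.0 TPM, and this cell held 94.6% of the gcgb reads of its batch. With the reads of each batch summed, gcgb was therefore higher in the New batch, at 1349.7 CPM (1332 to 1368) against 386 CPM (375 to 398). The direction for gcgb thus depends on whether cells or reads are averaged. The second glucagon gene, gcga, was read in 51 New and 38 other cells, with medians of 79.7 and 114.2 TPM and a difference of -0.39. Its highest New cell held 77181 TPM and 90.5% of the reads of its batch, and with summed reads gcga was higher in the New batch, at a difference of 2.16. This was the cell highest in gcgb too, with 205350 TPM of both glucagon genes together. The higher summed levels of gcga and gcgb in the New batch thus stand mostly on this cell.

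Somatostatin genes differed in direction. The gene sst1.1 had a difference of 1.87, at 9.48 ± 5.95 in the New batch and 7.61 ± 5.53 in the other, and its SD between cells was the widest of the 8 hormone genes in the New batch. Reads were found in 43 New cells (84.3%) and 29 other cells (74.4%). At 10000 TPM or more the shares were 13 of 51 (25.5%, 14.3 to 39.6) and 8 of 39 (20.5%, 9.3 to 36.5), and at 100000 TPM or more 11 of 51 (21.6%, 11.3 to 35.3) and 2 of 39 (5.13%, 0.627 to 17.3). The highest cell held 539593 TPM in the New and 246873 TPM in the other batch. In 3 New cells the other hormones outweighed insulin, with 539593, 518283 and 356914 TPM of sst1.1 beside 180557, 138648 and 272984 TPM of ins. No cell of the other batch showed this order (0 of 39, which allows up to 9.03%).

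The gene sst1.2 was read in a like share of cells, 43.1% of the New and 48.7% of the other, but 12 New cells (23.5%, 12.8 to 37.5) and 2 other cells (5.13%, 0.627 to 17.3) held 1000 TPM or more. The difference in mean levels was 0.50, smaller than its SD between cells of 5.18 in the New and 4.09 in the other batch, and it was -0.26 with summed reads. Reads of sst2 were found in 15 New cells (29.4%) and 21 other cells (53.8%), at a difference of -1.64. One cell held most of its reads in each batch, 95.6% in the New and 92.7% in the other. Peptide YY, named PYY in the gene table, had a read in 37.3% of the New and 56.4% of the other cells, and 6 New cells and 1 other cell held 1000 TPM or more, so that its difference was -0.73 over cells and 1.44 with summed reads. Ghrelin (ghrl) was read in 4 New and 2 other cells and never reached 1000 TPM.

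**Figure D3:**
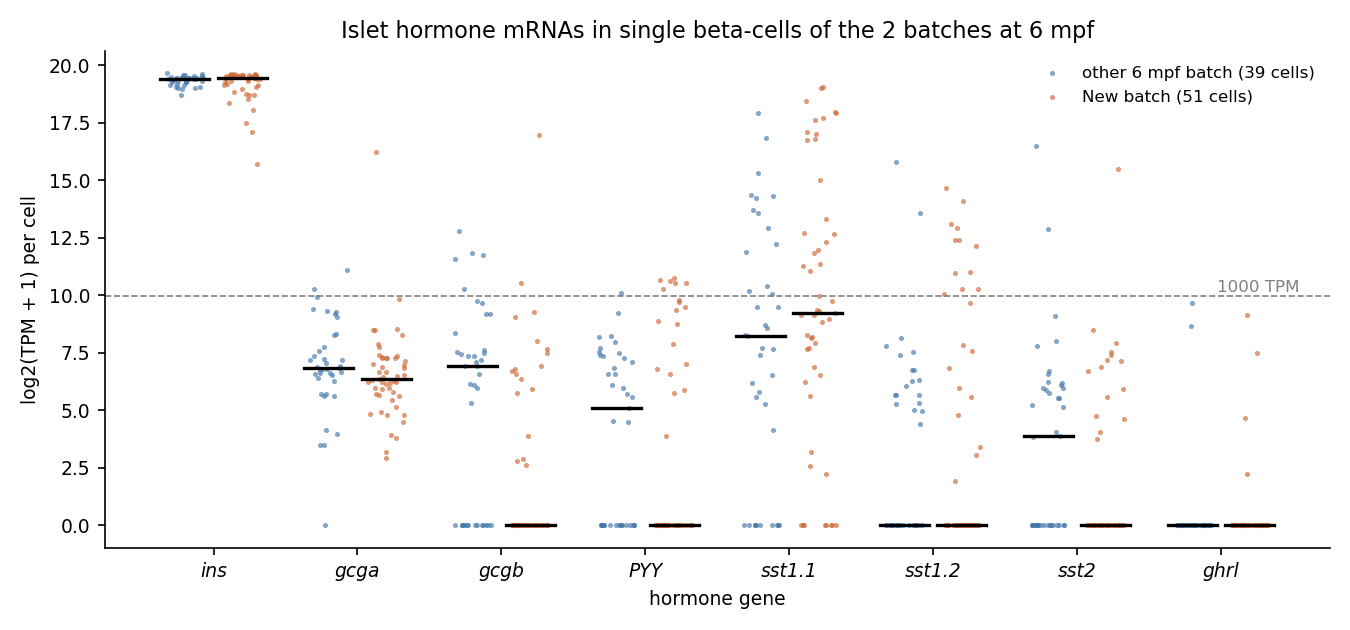
Level per cell of 8 islet hormone genes in the 2 batches, as log2(TPM + 1), with medians as black bars and 1000 TPM as a dashed line. Insulin lies at the top of both batches, and the same New cell stands far above the rest for gcga and gcgb. Above 100000 TPM of sst1.1 lie 11 New cells but 2 other cells.

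The shares of hormone-rich cells in the other ages give the spread around these batches. Cells with 1000 TPM or more of a somatostatin gene made up 6.76% of the cells in one batch of 3 mpf and 34.3% in its New batch. In the older ages they made up 56.5% (10 mpf), 43.2% (12 mpf) and 65% (14 mpf), and 12.5% in the pool aged 4 mpf. At this limit both batches of 6 mpf, at 35.9% and 41.2%, lay within the range of these pools and nearer to each other than those of 3 mpf. At 100000 TPM or more of sst1.1 the New batch of 6 mpf was the highest pool, at 21.6%, followed by 14 mpf at 6.67%. Its mean share of the 6 hormone genes, 6.39% of all TPM, was the highest pool mean too, followed by 4.79% at 4 mpf. For glucagon genes the 3 mpf batches stood at 0% and 25.7%, against 12.8% and 3.92% at 6 mpf.

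Transcription factors of beta-cell identity that passed the limit of 1 were higher in the New batch. Of the 16 tested, 3 were higher by 1 or more and 0 lower, beside 3.56% and 7.28% of all genes, and the median difference was 0.35. Among the 8 of them read in at least 50% of the cells, 1 was higher (12.5%, near the 9.2% of all such genes) and 0 lower. The median of these 8 was -0.10. The 3 higher among the 16 were insm1a, a zinc-finger factor of endocrine cells, nkx2.2a, a homeodomain factor needed for beta-cells, and neurod1. Reads of insm1a were found in 33 New cells (64.7%) and 10 others (25.6%), at a difference of 2.52. Those of nkx2.2a were in 30 New cells (58.8%) and 13 others (33.3%), at 1.95, and neurod1 had a difference of 1.07 with medians of 166.2 and 112.6 TPM. The factors isl1 (0.92), mnx1 (-0.05), pdx1 (-0.59) and pax6b (-0.66) were within 1, and their batches overlapped over most of their range. The most abundant of them, pdx1, was read in all 90 cells, with medians of 1403 TPM in the New and 1972 TPM in the other batch.

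Genes of the secretory granule and of exocytosis differed in both directions, 4 of 24 higher (16.7%) and 5 lower (20.8%), beside 3.56% and 7.28% of all genes. Of the 17 read in at least 50% of the cells, 3 were higher (17.6%) and 4 lower (23.5%), beside 9.2% and 16% of all such genes. The maturation marker ucn3l was read in 24 New cells (47.1%, 32.9 to 61.5) and 8 others (20.5%, 9.3 to 36.5), a difference of 1.98. Its summed reads were level, at 62.4 CPM (58.6 to 66.3) and 59.6 CPM (55.1 to 64.4), because 1 cell of the other batch with 1851 TPM held 63.7% of the reads of that batch. The vesicle SNARE vamp2 was higher in the New batch (1.45), and its partner on the plasma membrane, SNAP25, was lower (-2.16). Lowest beside SNAP25 was pam, which amidates peptide hormones, at a difference of -1.80. It was read in all other cells, from 50.2 over a median of 274 to 856 TPM, and in 48 New cells, over a median of 102.9 TPM to 447 TPM, and 36 of the 39 other cells lay above the New median.

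Lysosome and V-ATPase genes were lower in the New batch as a group. Of 29 tested, 10 were lower by 1 or more (34.5%) and 0 higher, 25 of 29 had a negative difference, and the median was -0.74 against -0.06 for all genes. Genes read in many cells pass the limit more often: of the 1479 genes with a read in at least 50% of the cells, 9.2% were higher and 16% lower. Of the 19 lysosome and V-ATPase genes in that range, 8 were lower. The V-ATPase subunits atp6v1d (-2.13), atp6v1ba (-2.02) and atp6v0b (-1.52) and the protease cathepsin D, ctsd (-1.51), led the list. Reads of atp6v1ba were found in 27 New cells (52.9%) and 34 others (87.2%), with medians of 15.5 and 73.5 TPM, and ctsd was read in 88.2% and 100% of cells, with medians of 133.1 and 206 TPM.

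Of 21 glycolytic enzymes, 6 were lower by 1 or more (28.6%, beside 7.28% of all genes) and 0 higher, and the median was -0.31. Among the 11 of them read in at least 50% of the cells, 5 were lower, beside 16% of all such genes. The kinase pgk1 had a difference of -2.08 and a read in 39.2% of the New and 69.2% of the other cells. It was followed by PFKP (-1.93), ldha (-1.61) and tpi1b (-1.58). For tpi1b the medians were close, 69.5 and 91.8 TPM, and the share of cells with a read was 70.6% and 94.9%. Genes of the ER stress response were lower in 7 of 30 (23.3%) and higher in 1 (3.33%), with a median of -0.43. Of the 10 read in at least 50% of the cells, 4 were lower (40%, beside 16% of all such genes). The lower ones included the transcription factors atf4a (-2.14) and xbp1 (-1.48) and the calcium-binding chaperones calr3a (-1.36) and calr (-1.35), while the sensor atf6 was higher (1.14). Among genes that carry proteins into the ER and on to the Golgi, 8 of 51 were lower (15.7%) and 1 higher, with a median of -0.31. Of the 27 read in at least 50% of the cells, 6 were lower (22.2%), a share near the 16% of all such genes. The oligosaccharyltransferase subunit dad1 (-2.34), the cargo receptor tmed2 (-2.33) and the translocon-associated SSR2 (-1.50) led them.

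Clock genes were lower or within 1, with 5 of 26 lower (19.2%, beside 7.28% of all genes), 0 higher and a median of -0.45. Of the 8 read in at least 50% of the cells, 4 were lower (50%, beside 16% of all such genes). Among the clock genes, bhlhe41, a repressor in the clock, had a read in 25 New cells (49%) and 33 others (84.6%) and a difference of -2.59. It was followed by nfil3-6 (-1.59), CRY1 (-1.27) and bhlhe40 (-1.19), which repress transcription too. The time of day of collection is not given in the sources used here. Antioxidant genes were lower in 5 of 22 (22.7%) and higher in 1 (4.55%). Of the 15 read in at least 50% of the cells, 5 were lower (33.3%, beside 16% of all such genes). The lower ones were led by the glutathione enzymes gpx4a (-1.98) and gstp1 (-1.95) and by catalase, cat (-1.45). By contrast the mitochondrial carrier ucp2 was higher (1.28, read in 86.3% of the New and 76.9% of the other cells).

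**Figure D4:**
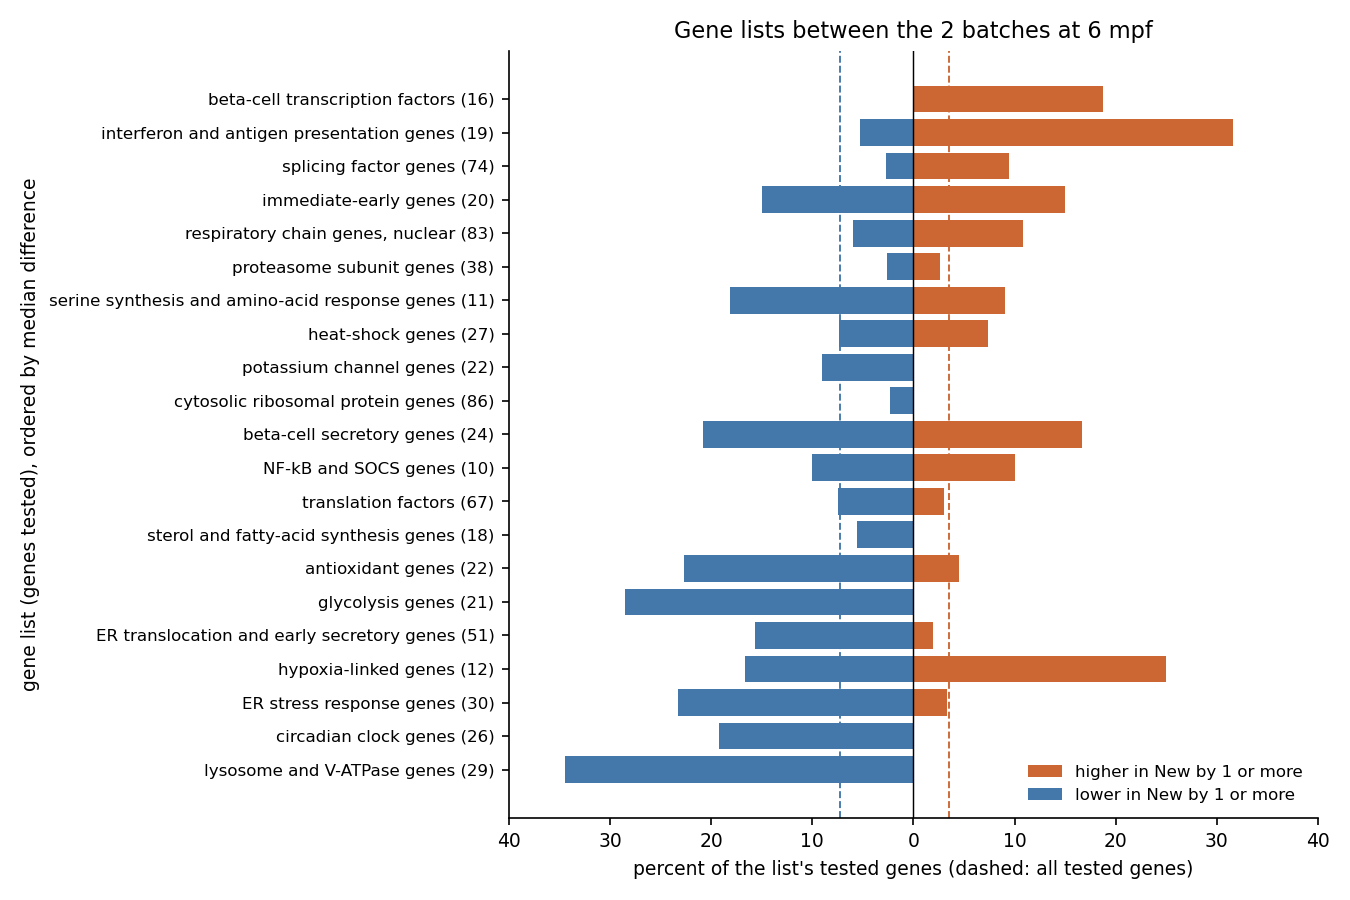
Percent of the tested genes of 21 lists that were higher (right) or lower (left) in the New batch by 1 or more, with the number tested in brackets, ordered by the median difference. Dashed lines give the shares over all 8258 genes, 3.56% and 7.28%. Bars to the left are longest for lysosome and V-ATPase genes (34.5%) and glycolysis (28.6%), and to the right for interferon and antigen presentation genes (31.6%).

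Interferon and antigen presentation genes had the largest share on the higher side among lists with at least 10 tested genes. Of 19 tested, 6 were higher (31.6%, beside 3.56% of all genes) and 1 lower, 14 of 19 had a positive difference, and the median was 0.34. Of the 9 read in at least 50% of the cells, 2 were higher (22.2%, beside 9.2% of all such genes) and 1 lower. The invariant chain genes cd74b (1.76) and cd74a (1.38), the ubiquitin-like isg15 (1.63), the immunoproteasome subunit PSMB10 (1.46), the chemokine cxcl20 (1.46) and mhc1uka (1.01) were higher, and mhc1uba was lower (-1.54). These genes were read in part of the New cells. Reads of isg15 were found in 17 New cells (33.3%, 20.8 to 47.9) and 4 others (10.3%, 2.87 to 24.2), and those of cd74b in 22 (43.1%) and 6 (15.4%). Of the 17 New cells with isg15, 11 also had cd74b, as did 32.4% of the New cells without it. Reads of si:dkey-238c7.13 were found in 11 of the same 17 cells and in 35.3% of the New cells without isg15. The gene mhc1uba was read in a like share of cells, 88.2% and 84.6%, but at medians of 6.88 and 47.9 TPM. Class I genes of this family resemble each other and vary between fish. Whether reads were split among them was not tested. A gene named LECT2 (ENSDARG00000090889), a chemotactic protein secreted by the liver in other vertebrates, was read in 18 New cells (35.3%) and 3 others (7.69%), with a highest level of 3556 TPM.

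Immediate-early genes, which answer a stimulus within minutes, were split, with 3 of 20 higher and 3 lower (15% each, beside 3.56% and 7.28% of all genes). Of the 6 read in at least 50% of the cells, 1 was higher and 1 lower (16.7% each, beside 9.2% and 16% of all such genes). The phosphatase gene dusp1 was higher (2.02, read in 66.7% of the New and 35.9% of the other cells) and its relative dusp2 lower (-2.37, 74.5% and 94.9%). The transcription factor junba was read in 15 New cells and 8 others, at a difference of 0.27. Of 2 identifiers that carry the name fosab, the abundant one (ENSDARG00000031683) had a difference of 0.13 and was read in 96.1% and 97.4% of cells. The other fosab identifier had a difference of 1.04, and of 0.97 with summed reads. Of the heat-shock genes, 2 of 27 were higher and 2 lower (7.41% each, beside 3.56% and 7.28% of all genes), so that the lower share was near that of all genes. The higher ones, hsp70.3 (1.00) and dnajb1b (1.15), were at -0.11 and -0.10 with summed reads. Polyubiquitin ubc, read in all 90 cells, stood out among abundant genes. Its medians were 299 TPM in the New and 868 TPM in the other batch, with ranges from 38.1 to 922 and from 207 to 2046 TPM, and its difference of -1.51 was larger than the SD between cells of either batch, 1.05 and 0.83.

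Cytosolic ribosomal proteins were close to level. Of 86 tested, 2 were lower by 1 or more and 0 higher, a smaller share than over all genes, and the median was -0.14. The genes RPL22L1 (-1.34) and rpl12 (-1.30) were the exceptions. Translation factors (2 of 67 higher, 2.99%, and 5 lower, 7.46%) and proteasome subunits (1 of 38 in each direction, 2.63%) had medians of -0.18 and 0.04. These shares were near or below those over all genes, 3.56% and 7.28%. Nuclear genes of the respiratory chain were higher in 9 of 83 (10.8%) and lower in 5 (6.02%), with a median of 0.04. Among the 67 read in at least 50% of the cells, 11.9% were higher, near the 9.2% of all such genes, and 5.97% were lower. The higher group was led by small subunits of cytochrome c oxidase, cox8b (1.69) and COX7A2 (1.54), and the lower by ndufs1 of complex I (-1.71) and COX6A1 (-1.50). Of the 23 splicing factors read in at least 50% of the cells, 5 were higher (21.7%, beside 9.2% of all such genes) and 1 lower. Over all 74 splicing factors tested, 7 were higher (9.46%) and 2 lower (2.7%), with a median of 0.20. Among them HNRNPAB was read in 88.2% of the New and 59% of the other cells, at medians of 96.8 and 22.2 TPM and a difference of 2.52, and srsf3a had a difference of 1.86. Hypoxia-linked genes went both ways, with 3 of 12 higher (25%, beside 3.56% of all genes), led by PDK2 (2.11). The 2 lower ones (16.7%, beside 7.28% of all genes) included BNIP3L (-1.68). A gene of related name, bnip3la, which was read in the New batch alone, went the other way (1.43). The growth factor vegfaa lay at -0.17. Of the 5 hypoxia-linked genes read in at least 50% of the cells, 1 was higher and 2 lower (20% and 40%, beside 9.2% and 16% of all such genes). Few genes of the cell cycle (pcna at 1.12 and ccnd2a at 1.06) and of duct markers (epcam at 2.03 and krt8 at -2.10) were read often enough to be compared. The remaining lists (potassium channels, sterol synthesis, amino-acid response, NF-kB and SOCS genes) had 0 or 1 higher and 1 or 2 lower genes each, of 22, 18, 11 and 10 tested. In that order 0%, 0%, 9.09% and 10% were higher, beside 3.56% of all genes. The shares lower were 9.09%, 5.56%, 18.2% and 10%, beside 7.28%.

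Set beside the other ages, the batches of 6 mpf were among the more alike pools. Taking each pair of the 9 pools (7 ages, with 2 batches each at 3 and 6 mpf) and the genes with a read in at least 10% of the cells of the pair, 10.8% of the genes differed by 1 or more in either direction between the batches of 6 mpf. The same count gave 24.8% between the batches of 3 mpf. Their median depths, 839391 and 238828 reads, differed more, and the part of depth in this share was not tested. Over the 28 pairs without 1 mpf the share ran from 4.3% to 27.3%, with 5 pairs below and 22 above that of the 6 mpf batches. Both batches of 6 mpf lay closer to 12 mpf than to each other, at 4.3% for the New batch, the smallest share of all pairs, and 8.51% for the other batch. They lay farther from 4 and 10 mpf. The share was 13.5% between 4 mpf and the New batch and 12.9% between 4 mpf and the other batch, and 20% between 10 mpf and the New batch and 21.2% between 10 mpf and the other. These comparisons share the pools of 4, 10 and 12 mpf.

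Over the 294 genes higher in the New batch, the New batch was the highest of the 9 pools in 83, and the other batch was the lowest of the 9 in 96. Over the 601 genes lower in it, the New batch was the lowest in 190.0 and the other batch the highest in 204. Both batches lay within the range of the 7 other pools in 236 of the 601 genes and in 42.5% of the 294. The genes were chosen for a gap between these batches, which by itself favours the highest and lowest places. Without a count over all genes, these counts do not set either batch apart from the other pools. For the genes lower in the New batch, the level at 12 mpf was nearer to that of the New batch in 74.4% of the genes, the level at 14 mpf in 72% and that of the 3 mpf batch not named New in 84%. The share was 61.7% for 10 mpf, 50.7% for the New 3 mpf batch, 48.8% for 4 mpf and 24.1% for 1 mpf. For the genes higher in the New batch it ran from 21.8% (14 mpf) and 25.5% (the 3 mpf batch not named New) over 41.5% (10 mpf), 43.9% (4 mpf), 52.4% (12 mpf) and 55.1% (the New 3 mpf batch) to 71.1% (1 mpf). On both sides 14 mpf and the 3 mpf batch not named New were mostly nearer to the batch with the lower level. The pool of 1 mpf was mostly nearer to the batch with the higher level. No such share is given over all genes, so these shares do not measure likeness to an age.

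The leading genes showed several patterns over the pools. Levels of pnoca were high in the other 6 mpf batch (7.36), the New 3 mpf batch (8.50) and at 14 mpf (6.46), and lay between 0.63 and 2.68 in the rest. The unnamed si:ch73-204p21.5 followed the same pools, at 4.34, 6.26 and 3.54. By contrast ca12 was at 3.41 or more in every pool other than the New 6 mpf batch (1.30), and WIF1 at 5.75 or more in every pool other than that batch (3.02). Reads of SHISAL1 gave 3.77 in the New 6 mpf batch, 3.19 in the 3 mpf batch not named New and 3.20 at 12 mpf, with at most 0.06 in the other pools. The gene slc16a10 was at 7.48 in the New 6 mpf batch and 6.85 at 12 mpf, and at most 3.51 elsewhere. MT1X, ZBTB16, plp1b, fndc5b and phyhiplb had their highest pool mean in the New 6 mpf batch. The gene cryaa was low in the other 6 mpf batch (0.50) and at 14 mpf (0.41), and between 1.97 and 3.93 in the rest.

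**Figure D5:**
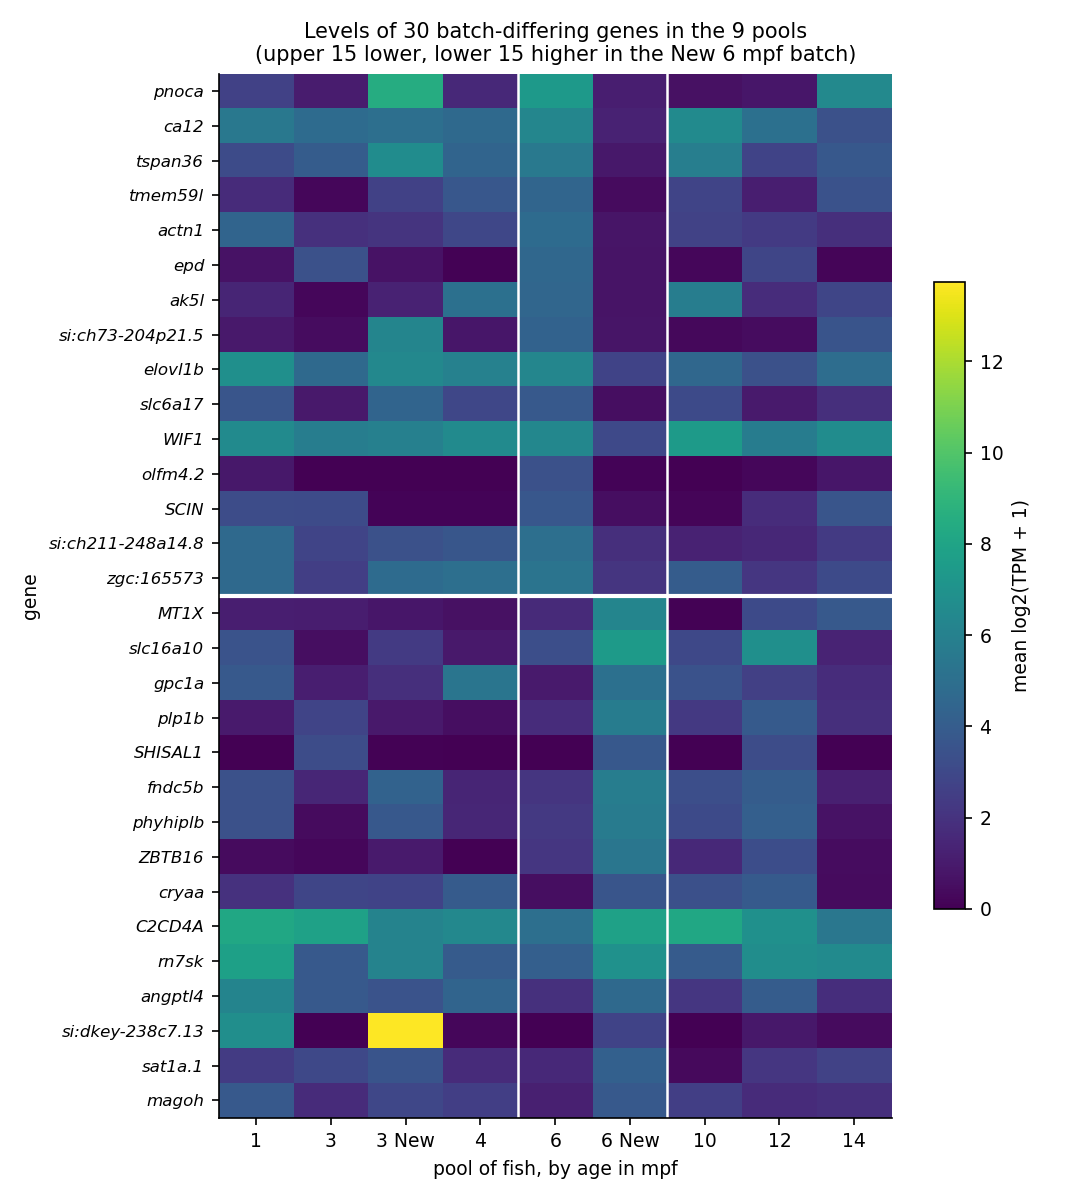
Mean log2(TPM + 1) of the 15 most negative (upper) and the 15 most positive (lower) genes of the 6 mpf comparison in the 9 pools, with the 6 mpf batches between the thin white lines. The row of pnoca is high in 3 pools of 3 ages, and si:dkey-238c7.13 reaches 13.73 in the New batch of 3 mpf.

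Differences between the batches of 3 mpf, which are other cells than those of 6 mpf, overlapped in part with those of 6 mpf. Of 7024 genes tested at both ages, 280.0 were higher and 575 lower in the New batch of 6 mpf, and 1642 were higher in the New batch of 3 mpf. The shared genes made up 37.5% of the 6 mpf list and 6.39% of the 3 mpf list on the higher side, and 6.96% and 24.8% on the lower side. In the opposite direction, 205 genes were lower in the New batch of 6 mpf and higher in that of 3 mpf (35.7% and 12.5%). Since 23.4% of all genes tested were higher in the New batch of 3 mpf, the shares of 37.5% and 35.7% lie near each other on either side of the 6 mpf difference. Of all genes tested 2.29% were lower in the New batch of 3 mpf, beside 6.96% of the genes lower and 9.64% of the genes higher in that of 6 mpf. The name New marks different fish at each age. Lysosome and V-ATPase genes past the limit of 1 went in opposite directions at the 2 ages. Of the genes tested in this list, 10 of 29 were lower in the New batch of 6 mpf and 19 of 28 higher in that of 3 mpf (medians -0.74 and 2.60). Of the interferon and antigen presentation genes, 6 of 19 were higher, 1 lower and 12 within 1 in the New batch of 6 mpf. In that of 3 mpf 28 of 32 were higher and 1 lower (medians 0.34 and 3.44). Over all genes tested at each age, the medians were -0.06 at 6 mpf and 0.41 at 3 mpf. The numbers tested differ between the ages, so the counts of either list are not over the same genes.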

How the data were processed

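Full-length cDNA of sorted single beta-cells was sequenced (SMART-Seq v4 per the labels, Smart-Seq2 per the methods). Per the labels the authors trimmed reads with Trim Galore, aligned them with HISAT2 to GRCz10 and counted them per gene with HTSeq; versions are not given in the sources used here. The authors deposited these counts, not normalized, and TPM values, which correct for gene length and have the same total in each cell. The batch was read from the column name, since GEO's labels do not part the batches. All 90 cells of 6 mpf were used, and no 2 columns were identical. Means of log2(TPM + 1) were subtracted, with 31916 genes in the table and 8258 kept (a read in at least 10% of cells). Of all identifiers 26193 had a name. With 1 pool per batch, no test was run. Summed counts used edgeR 4.0.16 (TMM factors only) in R 4.3.3, and other steps Python with numpy, pandas and scipy. Shares carry exact Clopper-Pearson and sums exact Poisson 95% intervals, for counting error only.

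The genes named are the hormone genes, the 15 with the largest difference in each direction, up to 4 per list by absolute difference, and pdx1, neurod1, isl1, pax6b, nkx2.2a, mnx1, ucn3l, junba, fosab, ucp2 and vegfaa. Others were named after their values were seen. The comparison, its lists and its rules were chosen with earlier results of these data known. The steps were tested on simulated data. Alternatives covered the pseudocount, the filter, the unit, the scaling, the depth (100000 reads drawn per cell) and the cells rich in another hormone. Mitochondrially encoded genes matched no identifier. No sequence or coordinate is given, as no table of sequences was used here.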

Additional observations from a re-analysis of the deposited data

How the results depend on the processing

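The count of genes past the limit moved with the scale, and the direction of the named genes mostly did not. Of 8258 genes, 3.56% were higher and 7.28% lower, and these shares were 10.1% and 17.6% with a pseudocount of 0.1, 0.775% and 1.25% with one of 10, 5.89% and 12.5% in CPM, and 7.2% and 12.2% in TPM without the hormone genes. With a filter at 50% of the cells they were 9.2% and 16% of 1479 genes. Summed reads gave 16.7% and 14.3% (1380 and 1179 genes) with TMM factors and 16.3% and 14.7% (1346 and 1212) with median-of-ratios factors, so that the higher side made up 53.9% and 52.6% of the genes past the limit in place of 32.8%, and 547 and 546 of the 895 genes stayed past it on the same side. Without the 38 cells rich in another hormone 12.2% (1005 genes) were lower, and 691 of the 895 stayed; the cause was not tested. Counts with no filter, with centring on the median gene, with 100000 reads per cell (83 cells), and, chosen after seeing the data, without the cell with 6909 reads stayed within 1.5 times. Among the named genes past the limit of 1, signs turned for gcgb (1.72 with TMM and 1.70 with median-of-ratios), hsp70.3 (-0.11 and -0.13), dnajb1b (-0.10 and -0.12) and ucn3l (-0.013 and -0.033), all in summed reads, where single cells weigh more. Of the genes within the limit, gcga (2.16), PYY (1.44), sst1.2 (-0.26), mnx1 (0.20) and elavl4 (0.05) turned sign there with TMM factors. Signs turned under other alternatives too, for mnx1 (0.39 at 100000 reads per cell), sst1.2 (down to -1.67) and vegfaa (up to 0.08). Without the hormone-rich cells gfra1a was at 0. The share of other cells with a gcga read was 100% at 100000 reads per cell. List medians were not computed from summed reads, and those of the respiratory chain, proteasome, heat-shock and amino-acid response lists crossed 0 under other alternatives. No paired analysis was possible because no result comes from a test and each batch is 1 pool.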
